A study of Mus musculus with 6 samples.

Results

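The genes described here encode the proteins of the cytosolic ribosome and their paralogues, measured by RNA-seq in L-GMP cells, the leukaemic counterpart of the granulocyte-macrophage progenitor (GMP), from which neutrophils and monocytes arise. Members were chosen by symbol: those that start with Rpl or Rps and a digit, plus Rplp0, Rplp1, Rplp2 and Rpsa, without pseudogene symbols (those with -ps), binding proteins and the Rps6k kinases. This gave 91 of the 47643 genes of the deposited table. Of these, 77 are canonical ribosomal protein genes, 31 of the small and 46 of the large subunit, and the other 14 are paralogues or copies. The knockout (KO) group holds 3 libraries of L-GMP cells that lack AMPK, with knockouts of both Prkaa1 and Prkaa2, the genes of its catalytic subunits, and the wild type (WT) group holds 3 libraries of wild type L-GMP cells. All 6 libraries come from the C57BL/6 strain. Not given in the sources used here are the oncogene of the leukaemia, how and in which cells the alleles were deleted, which exons were removed and how many mice were used. AMPK is a kinase activated when cellular energy is low, and the study asks how it bears on acetyl-CoA and on BET proteins, which bind acetylated chromatin, in this leukaemia.

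A ribosome is built from a small subunit, which reads the mRNA, and a large subunit, which joins the amino acids, and each ribosomal protein is normally present in a single copy per ribosome except the acidic stalk proteins. Most mRNAs of ribosomal proteins begin with a stretch of pyrimidines, the 5′ terminal oligopyrimidine (TOP) tract, through which mTORC1 and the binding protein LARP1 control their translation and stability. Growing blood progenitors make many ribosomes, and inherited or acquired loss of a single copy of several of these genes causes anaemias. Ribosomal protein genes have left many processed copies in mammalian genomes, so that reads can fit several places.

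The recovered read numbers were 12372343 to 14025385 in KO and 11390343 to 16415932 in WT libraries. FPKM is the number of reads per gene, scaled by gene length and library size by the authors. The FPKM values summed to 649611 to 653819 in KO and 463683 to 475654 in WT libraries, so the direction of a change depends on the scaling, and values with libraries rescaled to equal sums are given where they differ. Prkaa1 was at 1.11, 0.735 and 0.548 FPKM in the KO and 2.01, 2.20 and 1.80 FPKM in the WT libraries, and Prkaa2 was below 0.05 FPKM in all 6. Of the 6 markers of granulocyte-monocyte progenitors examined, Mpo and Elane were higher, Cd34, Fcgr3 and Fcgr2b lower, and Kit, at a mean of 1.43 FPKM in KO and 0.250 FPKM in WT, was not tested. The summed level of 7 markers of neutrophil maturation was 71421 to 72815 FPKM in KO and 317 to 331 FPKM in WT, and all 7 were higher in KO (Camp without a call at equal sums). Erythroid markers summed to 72.0 to 74.97 FPKM in KO and 11.1 to 13.7 FPKM in WT, with 5 of 6 higher. Basophil, mast cell and eosinophil markers summed to 530 to 563 FPKM in KO and 27.0 to 33.4 FPKM in WT, with 5 of 6 higher. Gata1, Epx and Prss34 were at 0 in all WT libraries, and Ltf, Klf1, Car2 and Prg2 were below 1 FPKM in them. All of these reached the minimum mean of 1 FPKM for testing only through their KO values. Over all genes tested, 40.4% were lower and 38.0% higher. The 3 B cell and 3 T cell markers summed to at most 0.371 FPKM in any library. The part of these cell types in the changes below was not tested, and in bulk RNA fewer cells of a type and less RNA per cell cannot be told apart.

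Ribosomal protein transcripts took a smaller part of the KO libraries. The 77 canonical genes held 3.96, 3.93 and 3.91% of the recovered reads in the KO libraries and 7.11, 7.16 and 7.33% in the WT libraries. The groups did not overlap, and the mean of 3.93 ± 0.0224% in KO was 0.546 times the 7.20 ± 0.113% in WT (SD, n = 3 each; two-sided exact permutation p = 0.1, the smallest that 3 against 3 libraries can give). Their FPKM values summed to 32934.6 ± 249 in KO and 52264 ± 1261 in WT (SD, n = 3 each). That is 5.06 ± 0.0377% of all FPKM in KO and 11.1 ± 0.131% in WT.

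**Figure D1:**
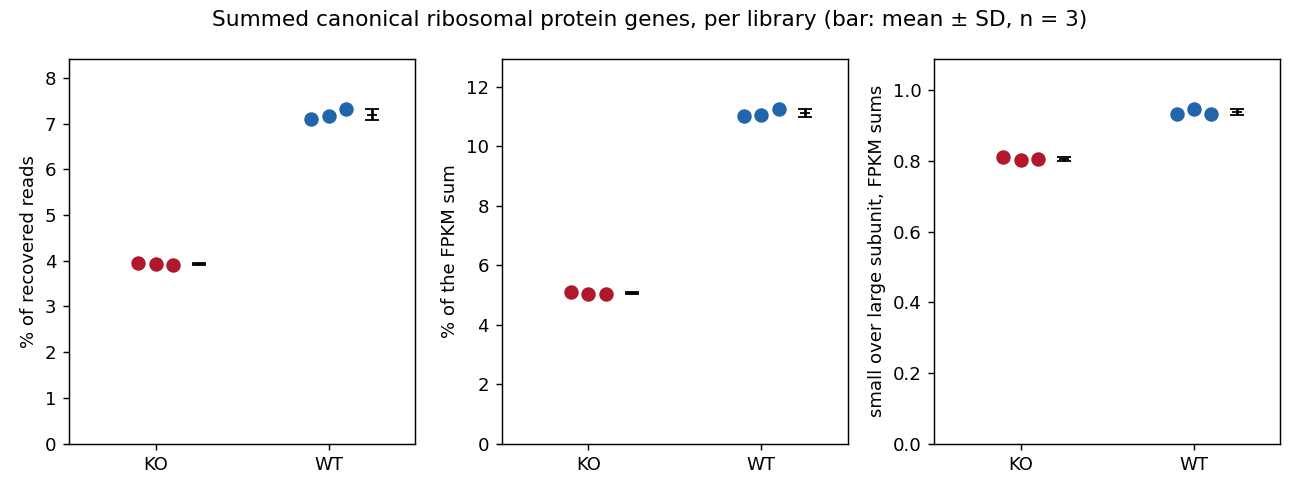
The panels plot, for each library, the canonical genes' share of recovered reads (%), their share of the FPKM sum (%), and the summed FPKM of small subunit genes over that of large subunit genes (ratio). KO libraries are red, WT libraries blue, and bars give mean ± SD (n = 3); every KO library lies below every WT library in each panel.

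Of the 77 canonical genes, 72 were lower in KO, 3 were higher (Rps2, Rplp0 and Rpl41, each of them lower at equal library sums) and 2 did not pass the test (Rpl10 and Rps20). A gene is called lower or higher where the limma adjusted p was under 0.05. Among the 72, Rpl24 (means of 0.768 FPKM in KO and 1.62 FPKM in WT) reached the minimum mean of 1 FPKM only through its WT values. No weight is put on its call. Over all 9108 genes tested, 78.4% were called, 40.4% lower and 38.0% higher. The median log2 change of the canonical genes was -0.68, against -0.02 for all genes tested, on the log2(FPKM + 1) scale, which understates changes of weakly expressed genes. With equal sums, all 77 were lower, where 59.0% of all genes were lower and 22.7% higher, and the medians were -1.15 for the canonical genes and -0.45 for all genes. The labels do not say whether the libraries came from different mice, so the p-values refer to the spread among these 6 libraries, and that spread may be technical.

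Both subunits showed this. Of the small subunit genes 29 of 31 were lower, with a median log2 change of -0.70, and of the large subunit genes 43 of 46, with a median of -0.66. Every KO library lay below every WT library in 72 of the 77 genes and above in 3, where this held for 41.6% and 39.1% of all genes tested. By the ratio of means, 17 genes were at least 2-fold lower, 36 were 1.5-fold to 2-fold lower and the other 19 of the 72 were lower by less. The log2 changes had a standard deviation of 0.35 over the 77 genes and a middle range of -0.96 to -0.50 (quartiles), against a median standard error of 0.0297 per gene.

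**Figure D2:**
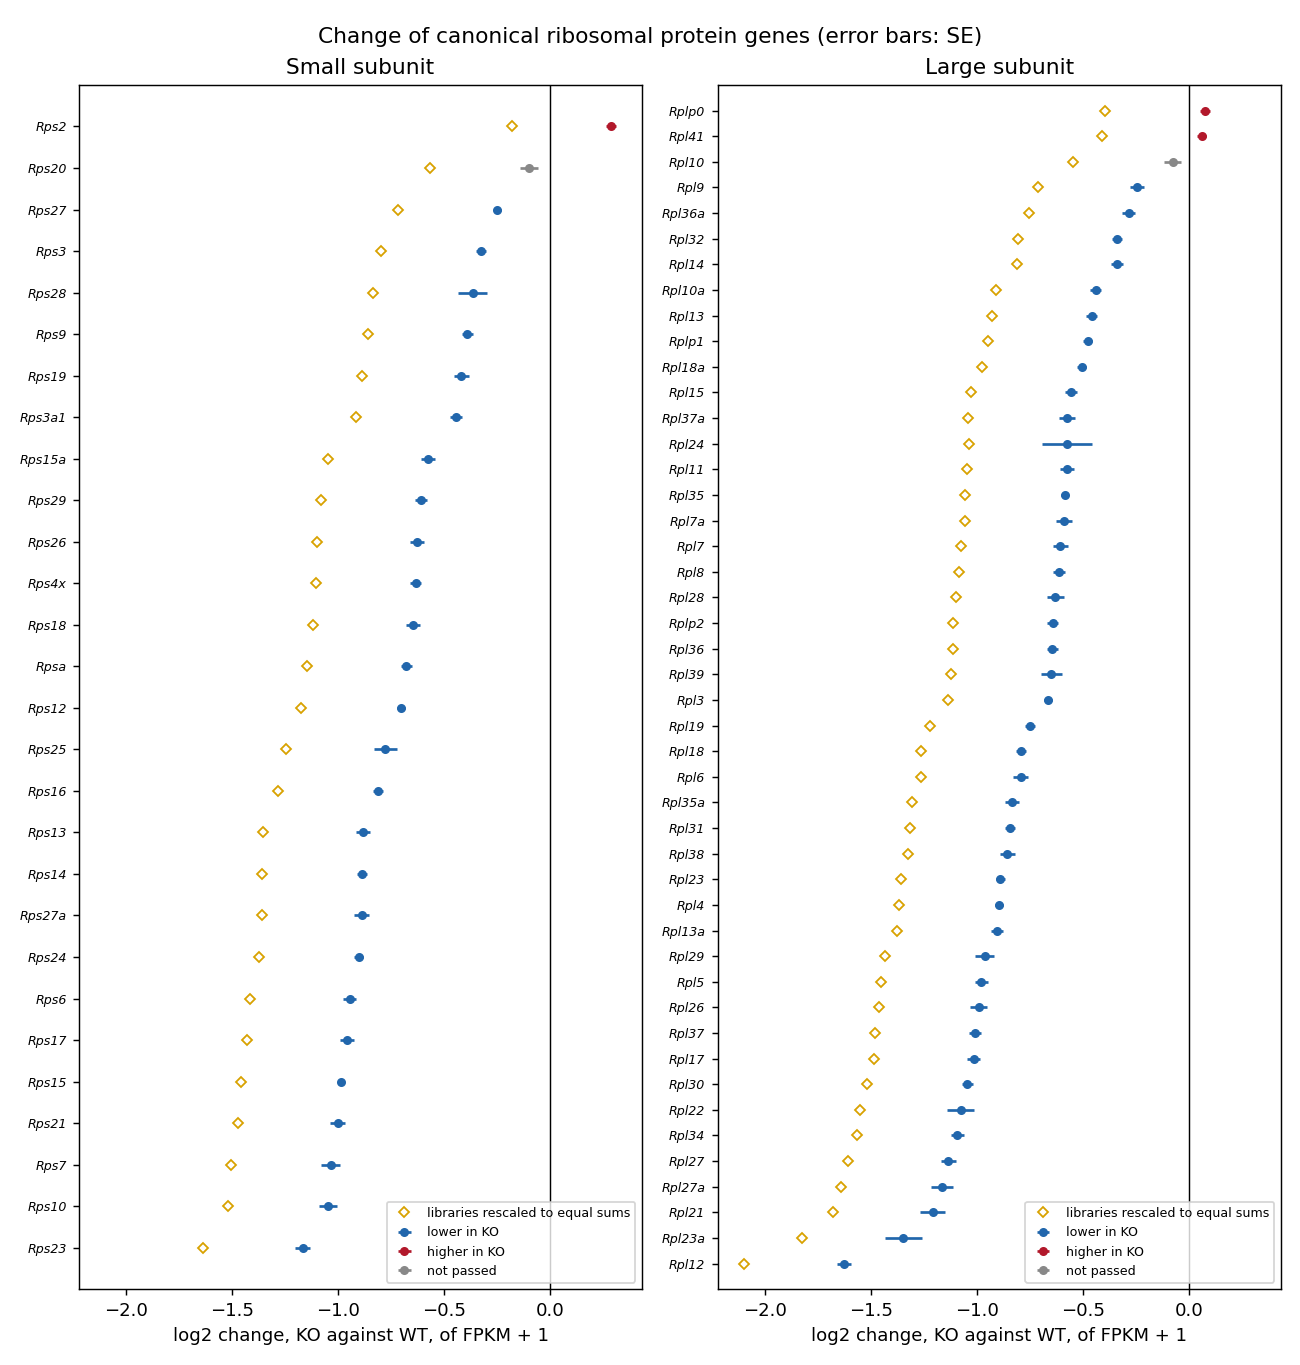
Each row is a canonical gene (a few are not shown) of the small (left) or large (right) subunit, and filled points give the log2 change of FPKM + 1, KO against WT, with its standard error (blue lower in KO, red higher, grey not passed). Open diamonds give the same with libraries rescaled to equal sums, where all genes shown lie left of 0, including Rps2, Rplp0 and Rpl41.

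The summed FPKM of the small subunit genes was 0.806 ± 0.00533 times that of the large subunit genes in KO and 0.938 ± 0.00851 times in WT (SD, n = 3 each; two-sided exact permutation p = 0.1, the smallest possible). This ratio does not depend on the scaling of the libraries. Sums are weighted toward the most abundant genes, so the difference need not be shared by the genes of a subunit. The median log2 changes of the subunits were close, at -0.70 for the small and -0.66 for the large.

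Among small subunit genes Rps23, of the decoding centre, had 202, 221 and 214 FPKM in KO and 477, 468 and 487 FPKM in WT, a log2 change of -1.17 (adjusted p = 9.75e-08). The libraries of a genotype lay close together and the genotypes far apart. Rps15, a head protein needed for export of the subunit from the nucleus, had 1135, 1149 and 1136 FPKM in KO and 2228, 2253 and 2294 FPKM in WT (log2 change -0.99, SE 0.02, adjusted p = 7.1e-09). Rps26, which lines the exit of the mRNA channel, had 1365, 1321 and 1241 FPKM in KO and 1988, 2027 and 2052 FPKM in WT, a smaller change of -0.63. Rps6, the protein phosphorylated by the S6 kinases downstream of mTORC1, was 1.93-fold lower, with 304 ± 7.89 FPKM in KO and 586 ± 19.3 FPKM in WT (SD, n = 3 each; limma adjusted p = 1.44e-07). Rps14 and Rps19 are known from human anaemias, Rps14 from the 5q- syndrome and Rps19 from Diamond-Blackfan anaemia. Rps14 averaged 1302 ± 14.8 FPKM in KO and 2409 ± 67.8 FPKM in WT (SD, n = 3 each), a log2 change of -0.89. Rps19 had 232, 229 and 226 FPKM in KO and 293, 303 and 324 FPKM in WT, a change of -0.42, smaller than the median of its subunit.

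Of the 14 genes listed for the small subunit head, 13 were lower and Rps20 did not pass (median -0.67). Among the other 17 small subunit genes 16 were lower and Rps2 was higher, though lower with equal sums (median -0.88). Over all genes tested, 40.4% were lower and 38.0% higher. Rps20 had 109, 104 and 107 FPKM in KO and 109, 114 and 121 FPKM in WT, which touch (log2 change -0.10, SE 0.04, adjusted p = 0.0675). Rps2 (ENSMUSG00000044533), at the entry of the mRNA channel, was at 1024, 1014 and 1022 FPKM in KO and 809, 835 and 861 FPKM in WT. Its log2 change was 0.29 (SE 0.02, adjusted p = 2.06e-05) as deposited and -0.18 with equal sums. It has 23 near-identical genes (at least 95% identity over at least 80% of the coding sequence), so its reads are uncertain.

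In the large subunit the most negative log2 change was that of Rpl12, which with the stalk proteins forms the landing site of translation factors. Rpl12 (ENSMUSG00000038900) had 53.9, 56.8 and 58.3 FPKM in KO and 173, 177 and 176 FPKM in WT, 3.12-fold lower (log2 change -1.63, SE 0.03, adjusted p = 2.16e-08). The log2 changes of the other stalk proteins were smaller or positive. Rplp0 (ENSMUSG00000067274), the stalk base, had 2139.9, 2141 and 2111 FPKM in KO and 1965, 2012 and 2081 FPKM in WT, every KO library above every WT library by a narrow margin (log2 change 0.08, adjusted p = 0.0140; -0.39 with equal sums). Rplp1 and Rplp2, the acidic proteins that hang on Rplp0, were lower, with log2 changes of -0.48 and -0.64. Rplp1 averaged 1694 ± 24.6 FPKM in KO and 2359 ± 58.1 FPKM in WT, and Rplp2 97.3 ± 2.22 FPKM in KO and 152 ± 0.514 FPKM in WT (SD, n = 3 each).

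Rpl5 and Rpl11, which with the 5S ribosomal RNA bind MDM2 and so act on p53, were both lower but unequally. Rpl5 had 87.1, 81.2 and 83.0 FPKM in KO and 165, 166 and 166 FPKM in WT (log2 change -0.98, SE 0.03), and 26.7% of its exonic bases overlap another gene. Rpl11 had 106, 106 and 101 FPKM in KO and 157, 151 and 159.8 FPKM in WT (log2 change -0.57, SE 0.03, adjusted p = 2.32e-06). Relative to the mean of the canonical genes, Rpl5 was lower and Rpl11 higher, as described below.

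The genes of the 7 proteins around the opening of the peptide exit tunnel were all lower (median -0.99), beside 40.4% of all genes. Rpl23a, the docking site of the signal recognition particle there, had 33.2, 38.9 and 39.97 FPKM in KO and 87.1, 98.4 and 104 FPKM in WT (log2 change -1.35, SE 0.09, adjusted p = 5.18e-06). Its value is uncertain, since 62.3% of its exonic bases overlap other genes and 19 genes are near-identical to it. Rpl35 of the same group, with 66.2% of its bases overlapped, changed by -0.58. Rpl4, which lines the tunnel further in, averaged 926 ± 4.61 FPKM in KO and 1721 ± 37.7 FPKM in WT (SD, n = 3 each), a change of -0.89 (adjusted p = 2.22e-08).

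Rpl21, Rpl27a and Rpl27, further large subunit proteins, were also among the 8 canonical genes with the most negative log2 change. Rpl21 had 144, 151 and 157 FPKM in KO and 331, 336 and 380.1 FPKM in WT (-1.21), with 57 near-identical genes, the most of any canonical gene. Rpl27a had 33.0, 31.6 and 33.1 FPKM in KO and 70.5, 72.7 and 79.6 FPKM in WT (-1.16). Rpl27 had 79.3, 74.7 and 81.4 FPKM in KO and 174, 170.3 and 176 FPKM in WT (-1.13, SE 0.04, adjusted p = 1.28e-07). No KO library of these genes came near a WT library.

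At the other end stood Rpl41 and Rpl10. Rpl41, the shortest ribosomal protein, which bridges the subunits, had 948, 970.0 and 923 FPKM in KO and 896, 915 and 909 FPKM in WT. Its log2 change was 0.06 (SE 0.02, adjusted p = 0.0305), and -0.41 with equal sums. The Rpl41 call was lost when KO library 1 or 2 or any WT library was left out (changes of 0.06, 0.05, 0.05, 0.07 and 0.06). Rpl10, which joins the large subunit last, had 533, 517 and 524 FPKM in KO and 523, 553 and 584 FPKM in WT, which overlap (log2 change -0.08, SE 0.04, adjusted p = 0.116). Rpl10 and Rps20 both passed as lower without WT library 1, with changes of -0.12 and -0.13. Rpl24 was almost unread, with 29 reads in the 3 KO and 74 in the 3 WT libraries, or 0.768 ± 0.223 FPKM in KO and 1.62 ± 0.199 FPKM in WT (SD, n = 3 each). The next canonical gene by WT level, Rpl22, had 46.5 FPKM, so the Rpl24 value, with 47.0% of its exonic bases overlapped and 4 near-identical genes, is uncertain.

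The other canonical genes were all lower in KO, and a few are given after their values were seen to show their range. Rpl34 had 142, 141 and 137 FPKM in KO and 288, 301 and 307 FPKM in WT (log2 change -1.09, SE 0.03). Rps10, of the small subunit head, changed by -1.05, with 28.7% of its exonic bases overlapped, and Rps24, another gene mutated in Diamond-Blackfan anaemia, by -0.90. Rpl38, which has a part in the translation of Hox mRNAs in mouse embryos, averaged 457 ± 6.89 FPKM in KO and 828 ± 37.7 FPKM in WT (SD, n = 3 each), a change of -0.85. Toward the other end, Rpl14 had 968, 946 and 959 FPKM in KO and 1188, 1182 and 1267 FPKM in WT (-0.34, adjusted p = 2.21e-05), and Rpl9 had 98.5, 96.3 and 96.0 FPKM in KO and 112, 113 and 121 FPKM in WT (-0.24, adjusted p = 0.00042). The libraries did not overlap in either gene, although the difference was a small part of the level.

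To compare members with each other whatever the scaling, each library was then centred on the mean log2(FPKM + 1) of the 77 canonical genes, a comparison added after the data were seen. Within the family, 35 genes were lower in KO, 33 were higher and 9 did not pass. Centring on the mean of these same genes balances their changes, so the near-even split follows from the method. Only the order of the genes is read from it. Over all genes tested, 15.6% were lower and 70.9% higher on this scale, which moves every gene up by the family's own mean decrease. All 77 genes had the same outcome with libraries rescaled to equal sums. The centring removes the scale of a library except through the added 1 FPKM, so this outcome was fixed by the method and checks nothing. Rps2 stood highest, at a relative log2 change of 1.001, followed by Rplp0 at 0.79, Rpl41 at 0.77, Rpl10 at 0.64 and Rps20 at 0.61. Rpl12 stood lowest at -0.91, with Rpl23a at -0.63, Rpl21 at -0.50 and Rps23 and Rpl27a at -0.45 each. In the 5S particle, Rpl5 was at -0.27 (adjusted p = 0.000129) and Rpl11 at 0.14 (adjusted p = 0.00362).

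As a share of the canonical FPKM sum, Rplp0 held 6.47 ± 0.0208% in KO and 3.86 ± 0.0183% in WT, and Rps2 held 3.10 ± 0.0288% in KO and 1.60 ± 0.0123% in WT. Rpl41 held 2.88 ± 0.0597% in KO and 1.74 ± 0.0338% in WT. By contrast Rpl12 held 0.171 ± 0.00799% in KO and 0.336 ± 0.00622% in WT (SD, n = 3 each throughout). These 4 genes stood at the ends of the family in the same libraries, so their shares restate that order and no test is given.

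**Figure D3:**
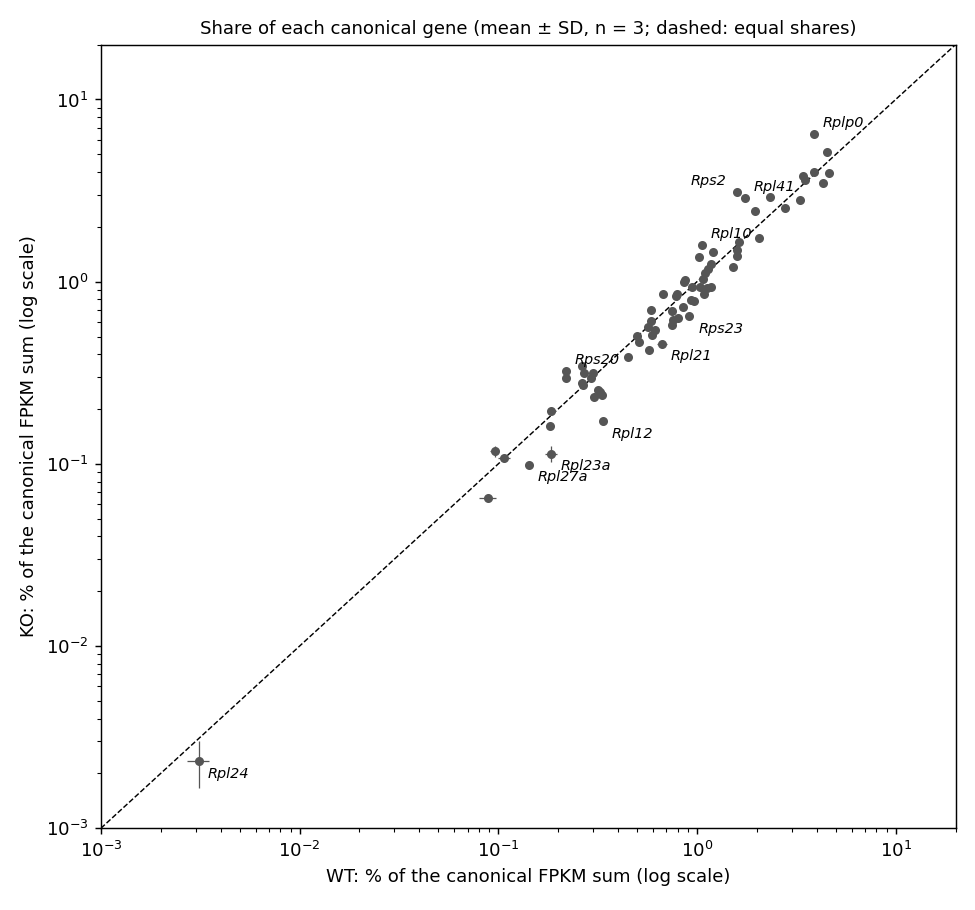
Each point is a canonical gene, with its share of the canonical FPKM sum in KO (vertical axis, %) against WT (horizontal axis, %), both on log scales, as mean ± SD (n = 3); the dashed line marks equal shares. Rplp0, Rps2 and Rpl41 lie above the line, at 6.47, 3.10 and 2.88% in KO, and Rpl12 below it, at 0.171%; a few genes are not shown.

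Properties of the genes went little with these differences. Over the 77 genes, whose points share the same 6 libraries, Spearman's rho with the log2 change was 0.08 for the WT level, 0.07 for coding length, 0.19 for GC content of the coding sequence, -0.01 for exonic length, -0.10 for the share of overlapped bases and -0.19 for the number of near-identical genes. Of the 77 genes 74 have at least 1 near-identical gene, with a median of 6. Among the 17 genes with at least 10 near-identical genes 16 were lower (median -0.94), and among the 24 with at most 3 it was 22 (median -0.80). Rpl8, with no near-identical gene and no overlap, had a log2 change of -0.61. The 259 symbols of processed copies that the choice of members left out summed to 213 ± 7.73 FPKM in KO and 348 ± 19.8 FPKM in WT (SD, n = 3 each). Of the 43 of them that could be tested, 24 were lower, 1 was higher and 18 did not pass, beside 40.4% of all genes lower. With equal sums 36 were lower, 1 was higher and 6 did not pass, beside 59.0% of all genes lower.

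The promoters of the genes at both ends are shown because these genes moved apart within the family. They come from RefSeq on GRCm38.p6, from 70 bases before to 30 bases from the annotated start, 5′ to 3′ on the gene's strand. Capitals mark a run of at least 7 pyrimidines (C or T) that begins within 20 bases of the start. Rpl12 lies at chr2:32961642-32961741 (plus strand), Rplp0 at chr5:115559397-115559496 (plus), Rps2 at chr17:24719993-24720092 (plus) and Rpl41 at chr10:128549139-128549238 (minus).
Rpl12: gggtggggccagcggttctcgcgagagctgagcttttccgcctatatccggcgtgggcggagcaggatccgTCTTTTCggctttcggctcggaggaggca
Rplp0: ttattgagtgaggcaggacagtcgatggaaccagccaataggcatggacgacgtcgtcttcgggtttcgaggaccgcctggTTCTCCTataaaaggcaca
Rps2: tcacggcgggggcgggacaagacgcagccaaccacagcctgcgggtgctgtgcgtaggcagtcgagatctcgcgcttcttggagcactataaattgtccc
Rpl41: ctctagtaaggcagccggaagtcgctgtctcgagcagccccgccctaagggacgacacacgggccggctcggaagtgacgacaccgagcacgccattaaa

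Such a pyrimidine run was found in 39 of the 67 promoter windows of canonical genes (58.2%; 57 genes matched), and in 27.4% of all 32851 promoter windows. Rpl12 and Rplp0, at opposite ends, both have it, and the windows of Rps2 and Rpl41 do not. In the Rplp0 and Rps2 windows TATAA lies after the annotated start, so the place where their mRNAs begin is uncertain. A run, or the lack of one, therefore does not show whether an mRNA has a TOP tract. CCGGAAG, the core bound by ETS family factors, was found on either strand within 250 bases before to 50 after the start in 37.3% of the canonical windows and 8.86% of all. It was present in both Rps2 and Rpl41. TATAA between 20 and 40 bases before the start (plus strand) stood in 4.48% of the canonical and 3.31% of all windows. ATGGCGGC was in 7.46% of the canonical and 2.24% of all, and CACGTG in 11.9% and 7.15%, both on either strand. These are matches of letters in a window and not shown sites of binding.

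The 14 paralogues and copies changed in both directions. Of the 8 that reached the minimum mean of 1 FPKM, 5 were lower (Rps27l, Rpl36al, Rpl37rt, Rpl22l1 and Rpl7l1). Rps27rt was higher, without a call at equal sums. Over all genes tested, 40.4% were lower and 38.0% higher. Rps4l and Rpl39l reached that minimum only through their KO values, so no test is given for them. The other 6 were not tested.

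Rps4l (ENSMUSG00000063171), a retroposed copy of the X-linked Rps4x, was read almost only in KO. It had 64.8, 62.2 and 73.1 FPKM in KO and 0.0834, 0 and 0 FPKM in WT, or 2343 reads against 1, a read ratio of 2834 (95% exact counting interval 508 to 111982, which covers counting error only). The fitted log2 change was 6.04 (SE 0.08). No test is given, since the gene entered the fit only through its KO values. Rps4l lies at chr6:148354656-148355598 (mm10, plus strand), is annotated as a transcribed processed pseudogene in GENCODE M21, has 1 exon block, and overlaps no other gene. It had no near-identical gene, and its sequence matched the Rps4x coding sequence at 80.2% of 792 aligned bases. Rps4x itself had 374, 370.2 and 360.1 FPKM in KO and 553, 573 and 589 FPKM in WT. Rps4l thus reached 17.3, 16.8 and 20.3% of the Rps4x level in the KO libraries and 0.0151, 0 and 0% in the WT libraries.

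The start of the Rps4x coding sequence is shown beside the most similar stretch of the Rps4l transcript, which has no annotated coding sequence. That stretch was chosen for its likeness, so it does not show how far reads of the whole transcripts can be told apart. Each line gives 60 bases from GENCODE M21 transcripts (base 55 to 114 of the Rps4l transcript, base 1 to 60 of the Rps4x coding sequence), and capitals mark the 7 bases that differ.
Rps4l: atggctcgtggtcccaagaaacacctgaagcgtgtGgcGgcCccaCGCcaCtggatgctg
Rps4x: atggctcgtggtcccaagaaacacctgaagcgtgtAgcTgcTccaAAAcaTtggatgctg

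Rpl39l (ENSMUSG00000039209), a paralogue of the exit tunnel protein Rpl39 known for its expression in testis, was at 9.60, 6.86 and 7.81 FPKM in KO and 0.0947, 0 and 0 FPKM in WT. This was 251 reads against 1, a ratio of 304 (interval 54.0 to 12039), with a fitted log2 change of 3.13 (SE 0.12). No test is given, for the same reason as for Rps4l. Its partner Rpl39 went the other way, with 35.0, 37.3 and 34.0 FPKM in KO and 58.7, 56.2 and 53.3 FPKM in WT. Rpl39l thus reached 18.4 to 27.4% of the Rpl39 level in KO and at most 0.161% in WT. Rpl39l lies at chr16:10170226-10174911 (mm10, plus strand), has 3 exon blocks and no near-identical gene, and its coding sequence is 85.3% identical to that of Rpl39. Over the first 60 coding bases 4 differ (capitals).
Rpl39l: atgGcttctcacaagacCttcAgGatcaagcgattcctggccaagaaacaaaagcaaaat
Rpl39: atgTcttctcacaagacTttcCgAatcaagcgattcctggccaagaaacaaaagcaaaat

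Rps27l, a paralogue of Rps27 that p53 can induce, was more abundant than its partner in both genotypes. It had 764, 790.3 and 779 FPKM in KO and 1496, 1583 and 1555 FPKM in WT, 1.99-fold lower in KO (log2 change -0.99, SE 0.02, adjusted p = 4.66e-08). Rps27 had 450.2, 451 and 447 FPKM in KO and 536, 527 and 539 FPKM in WT, a change of -0.25. Rps27l thus stood at 170, 175 and 174% of Rps27 in the KO libraries and 279, 300.3 and 289% in the WT libraries. The coding sequences are 76.1% identical, and 18 of the first 60 bases differ (capitals).
Rps27l: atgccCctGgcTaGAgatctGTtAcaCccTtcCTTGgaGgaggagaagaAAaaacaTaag
Rps27: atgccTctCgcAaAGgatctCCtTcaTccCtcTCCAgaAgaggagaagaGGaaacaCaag

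Rpl36al showed the same pattern against the X-linked Rpl36a. It had 121, 121 and 119 FPKM in KO and 205, 207 and 214 FPKM in WT (log2 change -0.79, SE 0.02), and 24.5% of its exonic bases overlap another gene. Its level was 107, 105 and 105% of that of Rpl36a in KO and 152, 150.3 and 149% in WT. Rpl22l1, whose splicing and level RPL22 can restrain, went the other way relative to its partner. It had 24.9, 24.4 and 26.6 FPKM in KO and 39.5, 40.7 and 37.8 FPKM in WT (log2 change -0.62, SE 0.05, adjusted p = 1.21e-05), while Rpl22 changed by -1.08. Rpl22l1 therefore stood at 113, 120 and 120.4% of Rpl22 in KO and 79.99, 85.7 and 88.8% in WT.

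Rpl7l1, a nucleolar relative of Rpl7, changed by -0.29 (91.7 ± 3.62 FPKM in KO and 112 ± 2.85 FPKM in WT; SD, n = 3 each), less than Rpl7 itself at -0.61. Rpl37rt, a copy of Rpl37, had 11.3, 9.21 and 9.87 FPKM in KO and 15.8, 16.7 and 18.3 FPKM in WT (-0.69, adjusted p = 0.000191). Rps27rt had 5.28, 6.40 and 8.36 FPKM in KO and 4.47, 5.23 and 4.22 FPKM in WT (0.43, SE 0.15, adjusted p = 0.0310). Its coding sequence is identical to that of Rps27 over all 255 bases, so its reads cannot be assigned with certainty. The Rps27rt call was lost with equal sums, where the change was 0.03, and without KO library 2 or 3 or WT library 1 or 3 (changes of 0.45, 0.28, 0.41 and 0.38).

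**Figure D4:**
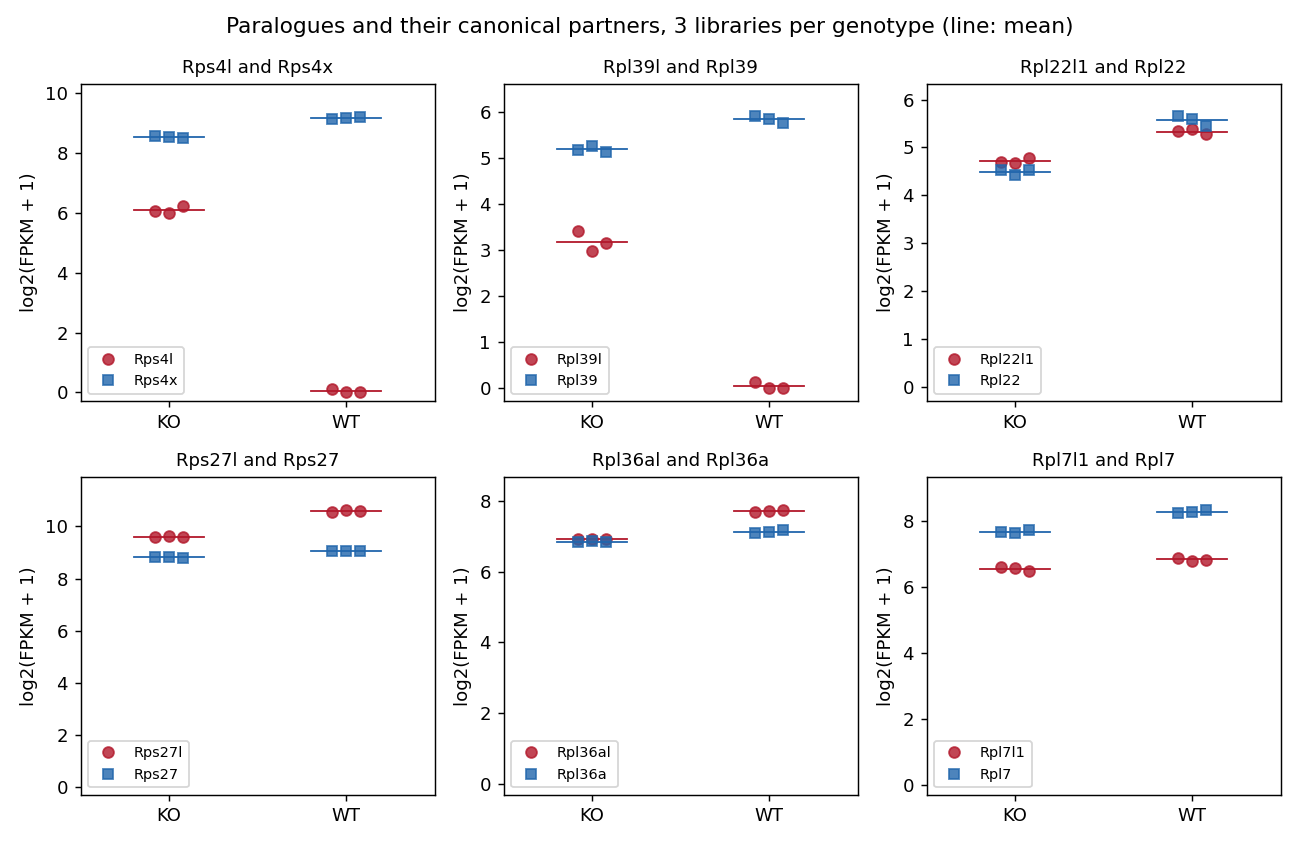
Each panel plots log2(FPKM + 1) of a paralogue (red circles) and its canonical partner (blue squares) in the 3 KO libraries (left) and 3 WT libraries (right), with lines at the means. Rps4l and Rpl39l lie near 0 in WT and at 62.2 to 73.1 and 6.86 to 9.60 FPKM in KO, while their partners and the paralogues of the other panels are lower in KO.

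Set against the partner within each library, the log2 ratio of paralogue to partner, taken after adding 1 FPKM to both, differed between KO and WT by 6.67 for Rps4l, 3.78 for Rpl39l, 0.68 for Rps27rt, 0.46 for Rpl22l1, 0.32 for Rpl7l1, -0.50 for Rpl36al and -0.74 for Rps27l. The added 1 understates the differences of Rps4l and Rpl39l, which are near 0 in WT. In these 7 of the 9 pairs compared the KO and WT libraries did not overlap on that scale. The two-sided exact permutation p was 0.1 in each, the smallest that 3 against 3 libraries can give, and 0.129 after adjustment over the 9 pairs. Rpl3l and Rpl10l averaged less than 1 FPKM in both genotypes, so the added 1 sets most of their ratio, and no difference is read from it. Without it, Rpl3l stood at 0.0763, 0.0291 and 0.0501% of Rpl3 in KO and 0.212, 0.341 and 0.307% in WT, again with no overlap.

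The members under the minimum mean were few in reads. Rpl3l, the form of Rpl3 in heart and skeletal muscle, had 6 reads in KO and 64 in WT, or 0.143, 0.0534 and 0.0941 FPKM in KO and 0.623, 1.01 and 0.906 FPKM in WT. After the authors' library scaling its WT to KO ratio was 8.82 (95% exact counting interval 3.84 to 24.9). The processed pseudogenes Rps3a2, Rps3a3 and Rpl6l had 15, 10 and 2 reads in KO and 39, 41 and 14 reads in WT. Rpl10l, a testis form of Rpl10, had 1 read in KO and 4 in WT, and Rps12l1 had 0 in both. Of all 14, 9 had every KO library below every WT library, and 3 had every KO library above. Over all genes tested, this held for 41.6% and 39.1%. Rpl10l and Rps12l1 did not separate.

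Other genes of the ribosome and of its production were lower as well. The 3 ribosomal proteins that go under other symbols were all lower, among them Gnb2l1 (the scaffold RACK1 of the small subunit) by -1.10 on the log2 scale and Fau by -0.52. Of 19 elongation factors and other genes with TOP mRNAs 15 were lower, with a median of -0.75, beside 40.4% of all genes lower. The other 4 did not pass (Eef2, Tpt1, Pabpc1 and Eif3h). With equal sums all 19 were lower (median -1.22), beside 59.0% of all genes. The largest changes among these 19 genes, as deposited, were those of the initiation factor Eif4b (13.2 ± 0.268 FPKM in KO and 33.9 ± 0.932 FPKM in WT, -1.30), the histone chaperone Nap1l1 (-1.27) and the nucleolar protein Npm1 (97.9 ± 0.994 FPKM in KO and 225 ± 2.81 FPKM in WT, -1.19; SD, n = 3 each). Eef2, the factor that moves the ribosome along, had 313 ± 10.2 FPKM in KO and 306 ± 2.25 FPKM in WT (SD, n = 3 each; limma adjusted p = 0.310).

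Chaperones of single ribosomal proteins and assembly factors of the subunits had larger changes. All 19 of 20 that could be tested were lower, with a median of -1.27, beside 40.4% of all genes lower. Among them Sdad1, at a mean of 0.817 FPKM in KO and 3.97 FPKM in WT, reached the minimum mean only through its WT values. No weight is put on its call. With equal sums all 19 were again lower (median -1.77), beside 59.0% of all genes. Pes1 and Wdr12, partners in large subunit maturation, averaged 8.10 ± 0.820 and 6.00 ± 0.350 FPKM in KO and 49.6 ± 0.640 and 28.8 ± 0.309 FPKM in WT (log2 changes -2.48 and -2.09). Rpf2, which brings the 5S particle of Rpl5 and Rpl11 into the large subunit, averaged 20.6 ± 0.495 FPKM in KO and 101 ± 2.94 FPKM in WT (-2.24, SE 0.04, limma adjusted p = 6.85e-09; SD, n = 3 each). Mdn1, not tested, was at 0 in all KO libraries and 0.850 ± 0.0722 FPKM in WT.

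Of the 10 regulators of ribosomal protein mRNAs tested of 11, 5 were lower, 1 was higher and 4 did not pass (median -0.19), a share lower that is near the 40.4% of all genes. With equal sums 9 were lower and 1 was higher (median -0.57), beside 59.0% of all genes lower. Eif4ebp1, the translation repressor that mTORC1 switches off, averaged 393 ± 3.74 FPKM in KO and 901 ± 15.3 FPKM in WT (-1.20), and Cnbp, which binds TOP mRNAs, 228 ± 4.50 FPKM in KO and 497 ± 10.8 FPKM in WT (-1.12). Larp1 changed by -0.39 (limma adjusted p = 0.00210). Rps6kb2, an S6 kinase, was higher, with 19.0 ± 0.828 FPKM in KO and 11.6 ± 1.07 FPKM in WT (log2 change 0.67, and 0.24 with equal sums; SD, n = 3 each). Mtor, Rptor, Rps6kb1 and Tia1 did not pass as deposited, with log2 changes of -0.04, 0.00, 0.02 and -0.12, and were lower with equal sums.

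**Figure D5:**
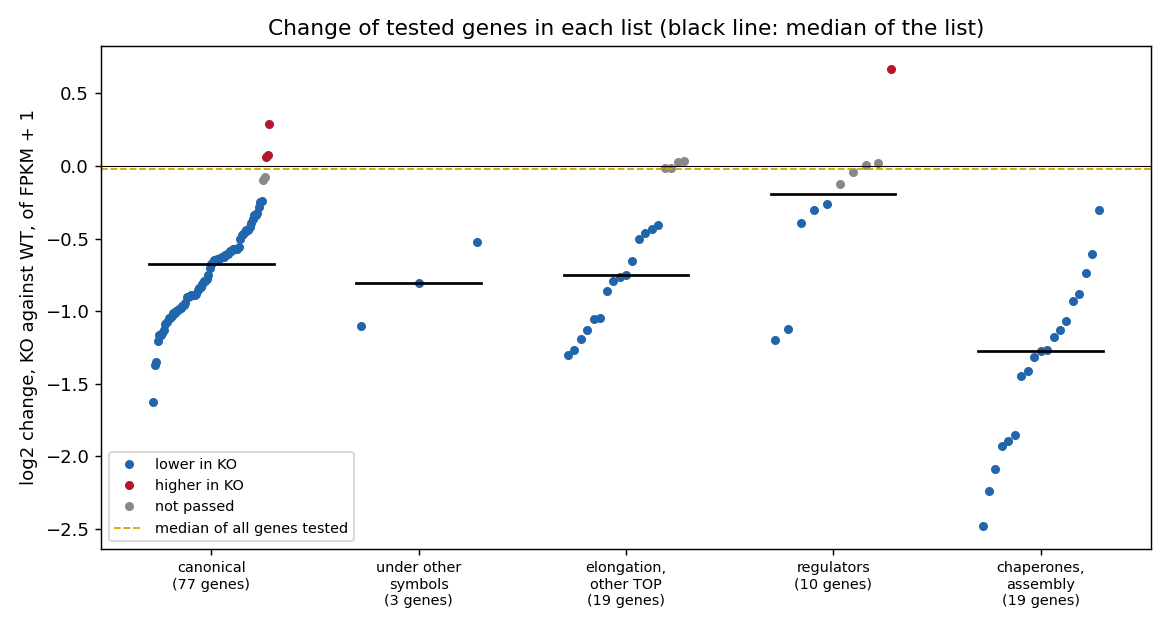
Points are tested genes of each list, placed by the log2 change of FPKM + 1, KO against WT (blue lower in KO, red higher, grey not passed), and black lines give the list medians; the dashed line is the median of all genes tested, -0.02. The medians are -0.68 for the 77 canonical genes, of which Rps2, Rplp0 and Rpl41 (red) are lower with equal sums, -0.75 for elongation factors and other TOP genes, -0.19 for regulators and -1.27 for chaperones and assembly factors.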

How the data were processed

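The authors deposited FPKM values (reads per gene scaled by gene length and library size) of 6 Smart-seq2 libraries made from sorted cells. Per the submitters' processing notes, CASAVA, bcl2fastq, STAR 2.5.3a, DESeq2 1.18.1 and mm10 were used; not given in the sources used here are the program that counted reads, the annotation, the strand setting and the handling of multimapped reads, so overlapping and near-identical genes are uncertain. Genes that averaged 1 FPKM or more over the libraries entered a limma 3.58.1 (R 4.3.3) fit of log2(FPKM + 1) by genotype, with the variance prior following the mean. Its two-sided p-values were adjusted by the Benjamini-Hochberg method across 9108 genes, with 0.05 as the threshold. The fit was also run on simulated reads in which few genes changed. In these data 78.4% of genes were called, so that run does not test the fit under such conditions. The reads behind the FPKM values were recovered to within 0.001 of a whole number for all but 1 of the 21132 genes above 0 (16481 at the annotated exonic length, 4650 at a searched length) and gave depths, read ratios and a limma-voom alternative. Counting intervals and floors cover counting error only. Pair ratios were compared by exact permutation (scipy 1.17.1). Positions and coding sequences came from GENCODE M21, which held 99.1% of the IDs, near-identical genes from blastn 2.17.0, and promoters from RefSeq (66 of 91 members matched).

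The members and gene lists were chosen with earlier results of these data known, and the centring on the family mean was added after the data were seen. Named are every paralogue, the canonical members that did not pass or were higher, the 8 with the lowest and 5 with the highest log2 change, the 5 with the highest WT level, the stalk and 5S particle members, Rps6, Rps14, Rps19 and Rpl4, and the 3 largest changes of each other list; further genes were named after their values were seen. Same-numbered libraries of the 2 groups did not deviate together (correlations -0.0166 to 0.00946), so the numbers were not used to pair them. Alternatives were other scalings, minimum levels, pseudocounts, limma without the trend, the replicate block and leaving out each library. A few genes that meet the rule are not reported here.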

Additional observations from a re-analysis of the deposited data

Results flagged for a closer look

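Rps2-ps9, a pseudogene symbol of the Rps2 family that the choice of members left out, was read above the WT level in KO. It had 3.16, 1.29 and 2.55 FPKM in the KO libraries and 0.0963, 0.0676 and 0.0868 FPKM in the WT libraries, a mean of 2.33 ± 0.954 FPKM in KO and 0.0836 ± 0.0146 FPKM in WT (SD, n = 3 each). This was 72 reads against 3, a ratio of 29.0 (95% exact counting interval 9.54 to 144). It reached the minimum mean of 1 FPKM only through its KO values, so no test is given. Rps2 itself has 23 near-identical genes, so reads of these genes cannot be assigned with certainty.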

How the results depend on the processing

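Leaving out each library in turn gave 72 to 74 canonical genes lower and 2 to 3 higher, with a median of -0.70 to -0.67, and 34 to 35 lower and 30 to 33 higher relative to the family mean. The count of canonical genes higher was 1 with cyclic loess, 1 with quantile normalization, 1 without the trend and 0 with equal sums. Their median was -0.73 with cyclic loess, -0.81 with quantile normalization, -1.15 with equal sums, -0.70 with a pseudocount of 0.1 and -0.70 with limma-voom on recovered reads (an alternative chosen after the data were seen); the median of all genes was 0.0029 with cyclic loess, -0.0058 with quantile normalization and -0.45 with equal sums. Without a minimum mean, 8 paralogues were lower in place of 5. Over all genes, 2383 were lower and 2072 higher at a minimum of 5 FPKM, 5769 lower with no minimum, and 2069 higher with equal sums.

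Signs turned for Rpl41 (-0.012 with cyclic loess, -0.41 with equal sums, -0.064 with quantile normalization), for Rplp0 (-0.069 with cyclic loess, -0.39 with equal sums, -0.25 with quantile normalization) and for Rps2 (-0.18 with equal sums). They also turned for the pairs Rpl3l with Rpl3 (-0.08 with 1 added, -1.60 with 0.1 and 0.45 with a pseudocount of 5) and Rpl10l with Rpl10 (0.0028 with 1 added, -0.39 with a pseudocount of 0.1, and -0.091 to 0.057 leaving out each library). Values under 1 FPKM make both pair ratios follow the pseudocount; for the genes the cause was not tested. Rplp0 also lost its call without the trend. Of 687 alternative values of 43 named genes, 656 kept direction and side of the threshold. With the replicate number as a block, 72 canonical genes were lower and 3 higher, 35 were lower and 32 higher relative to the family mean, and 3620 genes were lower and 3420 higher over all; the block changed no other call among the counts and pair ratios. Low read numbers limit Rpl24, Rps27rt and the 6 untested members.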

Other observations

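The canonical genes lie on 19 chromosomes. All 14 on chromosome 7 were lower in KO, beside 40.4% of all genes tested. On the X chromosome 3 of 4 were lower, Rpl36a, Rpl39 and Rps4x, with a median of -0.46 over the 4, and Rpl10 did not pass. Of the 11 canonical genes with more than 20% of their exonic bases overlapped by other genes all were lower, with a median of -0.91, and 72 of all 77 were, with a median of -0.68.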
